A study of Mus musculus with 2 samples.

Results

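The B cells of transplanted mouse hearts were the 286 cells that the depositors classified as B cells, of 4441 cells in all. Single-cell RNA-Seq was performed on Bm12 heart grafts at day 14 after transplantation into C57BL/6 (B6) recipients. All donors, of both groups, were on the Bm12 strain, whose mutated MHC class II (I-A) provokes CD4+ T cells of B6 recipients. Donors of the IL-33+ group (BM12 WT, hearts 1, 2 and 3) had intact Il33, and donors of the IL-33- group (BM12 IL33 KO, hearts 4, 5 and 6) had been bred onto an Il33-/- background, so that the deletion was in all donor cells while the recipients were not deficient. Cells were released by collagenase, enriched on a density gradient, marked with 1 hashtag antibody per heart and sequenced together. The heart was the replicate throughout (n = 3 hearts per group), and donor and recipient B cells were not separated here.

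B cells recognise antigen through a membrane immunoglobulin whose signal is passed on by the CD79A and CD79B chains. Mature naive B cells carry IgM and IgD, recirculate through lymphoid organs with the help of CCR7 and CXCR5, and present peptides to CD4+ T cells on MHC class II. After help from T cells they can enter germinal centres, switch to IgG, IgA or IgE, and become plasma cells, and in transplantation they are known as a source of antibody against the graft and as antigen-presenting cells.

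The 6 hearts gave 45, 26 and 105 B cells in the IL-33+ group and 91, 4 and 15 B cells in the IL-33- group. The B cells held 749658 unique molecular identifiers (UMIs, each standing for 1 captured transcript) in all, of which heart 5 gave 14056. The median B cell held 2292 UMIs and 1204 genes, against 3818 UMIs in the median of the other cells. Heart medians ran from 2182 UMIs in heart 3 to 3429.8 UMIs in heart 5. Since heart 5 rests on 4 cells, many fold changes and list medians below are also given without it. No cell barcode was shared between entries of the table. Il33 itself gave 14, 2 and 133 UMIs over all cells of the IL-33+ hearts and 17, 4 and 7 UMIs over those of the IL-33- hearts, whose cell numbers differed. Per fibroblast its level was 24.3, 0 and 50.7 CPM against 32.6, 73.8 and 16.1 CPM, with overlap. The position of the deletion relative to the 3′ end that was read is not given in the sources used here, and recipient cells carry the gene, so these counts do not check the genotype labels and groups are called by their labels.

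The label was first compared with the defining B cell genes. Cd79a (GRCm38 chromosome 7, 24897381 to 24902197, plus strand) was found in 272 of 286 B cells (95.1%), as was Ighm, the constant gene of IgM (chromosome 12, 113418558 to 113422730, minus strand). Ms4a1, which encodes CD20 (chromosome 19, 11249675 to 11266241, minus strand), was found in 218 B cells (76.2%) and Cd79b (chromosome 11, 106311341 to 106314762, minus strand) in 179 (62.6%). In naive T cells (Tn), which should lack these genes and had a median depth of 2764 UMIs, the shares were 2.06% for Cd79a, 14.0% for Ighm, 0.823% for Ms4a1 and 2.47% for Cd79b. When each cell was thinned to 1500 UMIs, Cd79a was found in 86.4% of B cells and 1.65% of Tn cells. At least 2 of Cd79a, Cd79b and Ms4a1 were found in 247 of 286 B cells and in 39 of 4155 other cells, among them 8 of 171 conventional dendritic cells (cDCs) and 8 of 347 NKT cells. The 4 B cells of heart 5 each held Ighm and 2 of the other 3 markers, and none of them held all 4.

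Levels were expressed as CPM, the UMIs of a gene scaled to a constant total per cell, averaged over the B cells of a heart. Cd79a stood at 1661, 1362 and 1699 CPM in IL-33+ hearts 1, 2 and 3 and at 1829.7, 963 and 1442 CPM in IL-33- hearts 4, 5 and 6. Ms4a1 stood at 1076, 739 and 783 CPM in the IL-33+ hearts and at 885, 544 and 717 CPM in the IL-33- hearts. Heart 5 was the lowest of the 6 for both genes, and the groups overlapped. Cd79b stood at 1314, 507 and 775 CPM against 681, 329 and 623 CPM, with heart 1 the highest. Ighm stood at 3076, 2659 and 3134 CPM against 2798, 1786 and 2778 CPM, again with overlap. The log2 fold change (IL-33+ over IL-33-, on log2(CPM + 10)) was 0.20 (SE 0.21) for Cd79a, 0.28 (SE 0.24) for Ms4a1, 0.62 (SE 0.30) for Cd79b and 0.29 (SE 0.18) for Ighm, and without heart 5 it was -0.052, 0.099, 0.30 and 0.080 in that order. Centring each heart on its median gene, which lowers every log2 fold change by the same amount, brought all 4 below 0. None of the 4 genes differed at an adjusted p of 0.05 (limma). The summed level of the 4 markers was 3623 to 7126 CPM in the B cells of each heart and at most 741 CPM in any other type of any heart.

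The 15 genes with the highest ratio of B cells to the next of the other 13 types were taken from 1805 genes that had at least 100 CPM in B cells and a UMI in at least 10% of them. These cells had been grouped on the same expression values, so the ratios are a description. They held the antigen receptor (Cd79a, Cd79b, Ighm, Ighd, Igkc and Iglc2), the transcription factor Pax5, which holds B cells to their lineage, and Pou2af1, the coactivator of octamer factors. The adaptor Bank1, the IgM receptor Fcmr, the low-affinity IgE receptor Fcer2a (CD23), the BAFF receptor Tnfrsf13c, Ms4a1 and the sulfotransferase Chst3 were also among them. The ratio to the next type ran from 52.2 for Cd79b, with monocyte-derived dendritic cells next, to 11.5 for Ighm, with cDCs next at 254.5 CPM. For 10 of the 15 genes cDCs were the next type. Only 18 of the 1805 genes had a ratio over 10, and 65 had a ratio over 2.

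**Figure D1:**
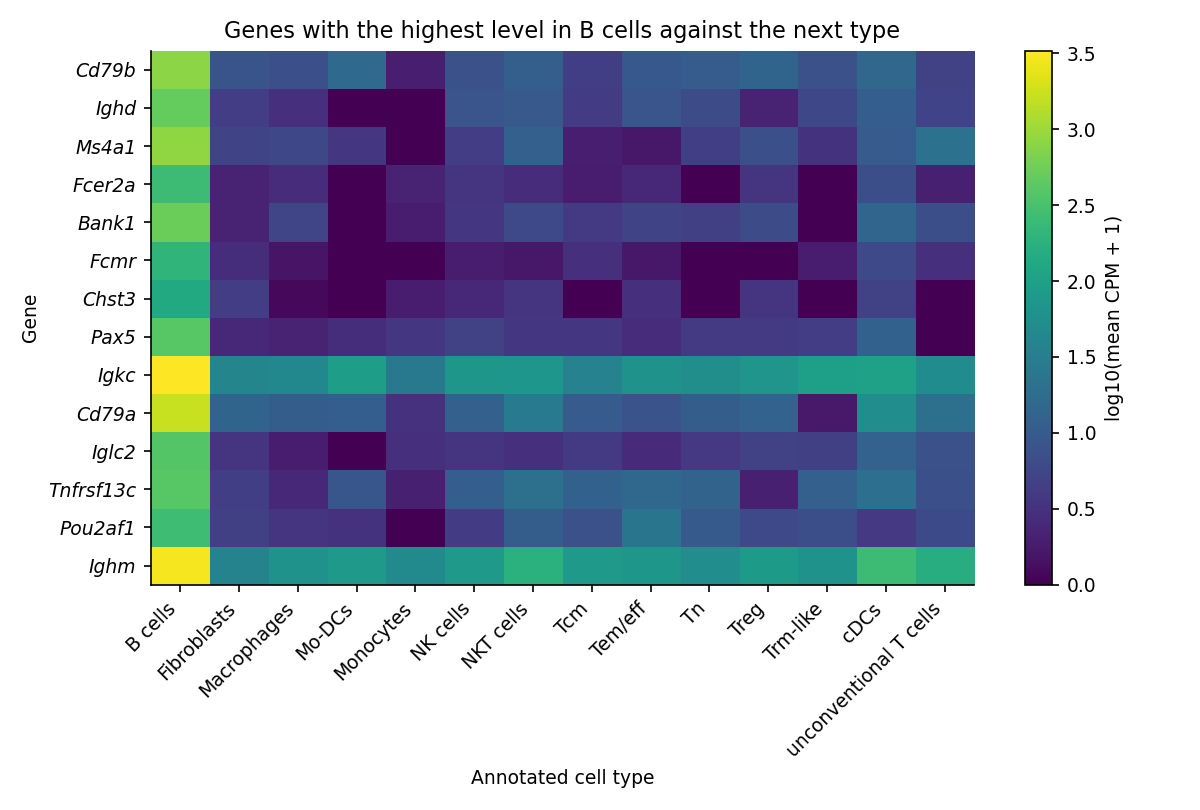
Mean level of 14 of the 15 genes with the highest ratio of B cells to the next type (rows) in each of the 14 annotated types (columns), as log10(mean CPM + 1) over all cells of the type. The B cell column is the brightest in every row, and Ighm and Igkc have the highest levels outside B cells, up to 254.5 CPM for Ighm in cDCs.

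Whether grafts with and without IL-33 held different numbers of B cells was asked from the share of B cells per heart. B cells made up 5.20%, 11.3% and 6.30% of all cells in the IL-33+ hearts and 10.9%, 1.41% and 2.68% in the IL-33- hearts. The means were 7.60% ± 3.25 and 4.99% ± 5.14 (SD, n = 3 each), with p = 0.5 in the two-sided exact permutation test over 20 divisions of the hearts, in which 0.1 is the smallest p that 3 against 3 can give. Among lymphocytes (B, T, NK and NKT cells) the shares were 9.32%, 13.1% and 9.31% against 14.6%, 1.70% and 3.43% (p = 0.4, exact permutation test). Hearts 5 and 6 lay below all IL-33+ hearts, and heart 4 lay above all of them among lymphocytes and above 2 of 3 among all cells. The spread within the IL-33- group exceeded the difference between the groups. The 95% Wilson interval of heart 4 (8.95% to 13.2% of all cells) did not meet those of heart 5 (0.549% to 3.57%) or heart 6 (1.63% to 4.38%), which cover counting error only. Shares of cells after digestion and gradient separation are not numbers of cells per graft.

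**Figure D2:**
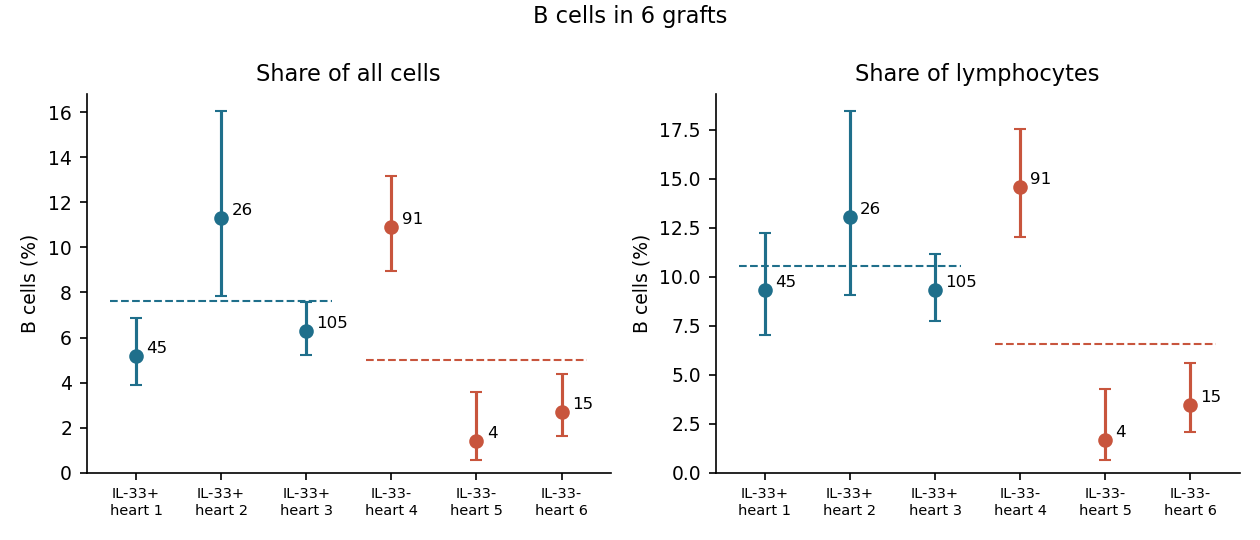
Share of B cells among all cells (left) and among lymphocytes (right) in each heart, in percent, with 95% Wilson intervals as bars, the number of B cells beside each point and group means as dashed lines. IL-33- heart 4 (10.9% of all cells) lies with the IL-33+ hearts, and hearts 5 and 6 (1.41% and 2.68%) lie below them.

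The immunoglobulin genes showed B cells that were nearly all unswitched. Ighm was accompanied by Ighd, the constant gene of IgD, in 151 of 286 cells, and 121 cells held Ighm without an Ighd UMI. Ighd stood at 353, 469 and 519 CPM in the IL-33+ hearts and at 556, 242 and 314 CPM in the IL-33- hearts. Switched heavy chains outnumbered Ighm and Ighd in 2 of 282 cells with a heavy chain UMI (0.709%, Wilson interval 0.195% to 2.55%), both in IL-33+ heart 3. One of them held 17 Ighg3 UMIs beside 8 of Ighm and Ighd, and the other held 1 Igha UMI and no Ighm or Ighd. The number was 2 of 105 cells in heart 3, 0 of 44 cells in heart 1, 0 of 26 in heart 2, 0 of 89 in heart 4, 0 of 4 in heart 5 and 0 of 14 in heart 6 (difference between group means 0.635 percentage points, p = 1, two-sided exact permutation test). Upper Wilson bounds of the hearts at 0 ran from 4.14% in heart 4 to 49.0% in heart 5.

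Igha was found in 21 B cells (7.34%) and in 7.82% of Tn cells. Ighg1 was found in 15 B cells (5.24%) and in 6.17% of Tn cells, and Jchain, which links IgM and IgA into polymers in plasma cells, in 12 B cells (4.20%) and in 2.88% of Tn cells. These shares are read as background and not as expression, so the cell called on 1 Igha UMI is not told apart from background. With at least 2 UMIs required for a call, the switched share was 1% in heart 3 and 0% in the other hearts. Ighe, the constant gene of IgE, had 0 UMIs in 749658, and 3 UMIs over all B cells would correspond to 4.00 CPM. Variable segments were hardly read in this 3′ assay, with 4 Ighv and 7 Igkv segments found in 4 and 9 B cells. Igkv1-117 was the only segment found in more than 1 B cell, with 1 cell each in hearts 1, 3 and 4, so the data do not speak to clonality.

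Light chains were mostly kappa. Igkc was found in 267 of 286 B cells (93.4%), against 12.3% of Tn cells, and stood at 2469.8, 3511 and 3708 CPM in the IL-33+ hearts and at 3262, 2071 and 2889 CPM in the IL-33- hearts. Lambda UMIs (Iglc1, Iglc2 and Iglc3 together) exceeded Igkc UMIs in 22 of 278 B cells with a light chain UMI (7.91%, Wilson interval 5.28% to 11.7%). The lambda share was 2.27%, 3.85% and 11.9% in the IL-33+ hearts and 7.87%, 0% and 7.14% in the IL-33- hearts (p = 0.9, exact permutation test), and the groups overlapped. Heart 3 held 12 of the 22 lambda cells and heart 4 held 7. Without heart 3 the difference between group means turned from 0.997 to -1.94 percentage points, and without heart 5 to -1.50.

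Many kappa cells also held lambda transcripts. Of 247 B cells with more Igkc than lambda UMIs, 109 held at least 1 lambda UMI (44.1%, Wilson interval 38.1% to 50.4%), against 2 of 243 Tn cells (0.823%). In 54 of the 109 it was a single UMI. The share was 51.2%, 37.5% and 53.5% in the IL-33+ hearts and 34.2%, 25.0% and 36.4% in the IL-33- hearts, where heart 5 gave 1 of 4 cells. All 3 IL-33+ hearts lay above all 3 IL-33- hearts, and the Wilson intervals of all 6 overlapped. This split was chosen after its values were seen and is given with no test. Some of the lambda constant genes are near-identical copies, so the division of UMIs among them is uncertain. The sum of Iglc1, Iglc2 and Iglc3 was used for these calls.

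**Figure D3:**
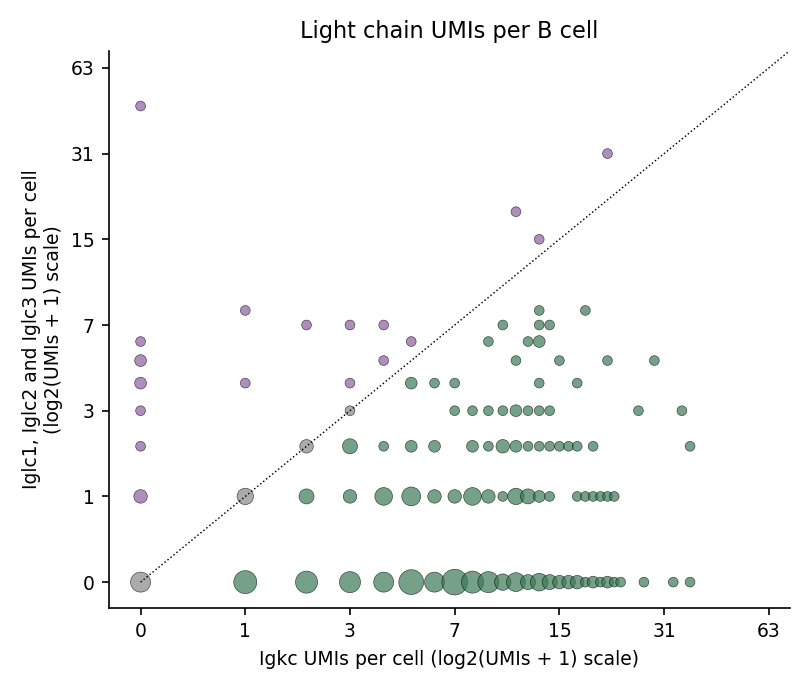
Igkc UMIs (x axis) against the sum of Iglc1, Iglc2 and Iglc3 UMIs (y axis) in each of 286 B cells, both on a log2(UMIs + 1) scale, with dot area growing with the number of cells at that position and the dotted line marking equal counts. Green dots are the 247 kappa cells, of which 109 lie above 0 on the lambda axis, purple dots the 22 lambda cells and grey dots cells with equal counts.

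Of the genes of naive follicular B cells, several were found in most cells. Foxp1, a transcription factor of mature B cells, was found in 261 of 286 cells (91.3%), Klf2, which keeps lymphocytes recirculating, in 212 (74.1%) and Ccr7 in 165 (57.7%). Fcer2a was found in 88 cells (30.8%) and Cxcr5, the receptor for the follicle chemokine CXCL13, in 35 (12.2%). At least 2 of the 10 genes on this list were found in 282 of 286 B cells, but also in 227 of 243 Tn cells, which share Klf2 and Ccr7. Ccr7 stood at 520 CPM in B cells, 607 CPM in Tn cells and 918 CPM in cDCs.

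Ccr7 and Klf2 were lowest in heart 5. Ccr7 stood at 439.8, 425 and 529 CPM in the IL-33+ hearts and at 590.5 and 572 CPM in IL-33- hearts 4 and 6, and no UMI was found in heart 5, where 3 UMIs would correspond to 213 CPM. Klf2 stood at 1245, 700 and 1396 CPM against 1330, 80.5 and 911 CPM, from 1 UMI in heart 5. The 20 homing and trafficking genes together stood at 3735 CPM in heart 5, close to 3811 CPM in heart 2, and Cxcr4 lay within the range of the other hearts. Egr1, an immediate early gene, stood at 1865 CPM in heart 5 against 162 to 445 CPM in the other hearts, and Cd44, a hyaluronan receptor of activated lymphocytes, at 1228 against 267 to 354 CPM. One cell of heart 5 gave 35 of its 37 Egr1 UMIs and all 26 of its Cd44 UMIs.

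Genes of other B cell states were found unevenly, with few transcripts of germinal centre genes and more of some plasma cell genes. The germinal centre genes Mybl1, Rgs13, Gcsam and Nuggc had 0 UMIs, Bcl6 had 38 UMIs in 31 cells, and 2 B cells held 2 or more of the 9 genes on the list, as did 2 of 243 Tn cells. Of the plasma cell genes, Tnfrsf17 (BCMA) and Derl3 had 0 UMIs, Prdm1, which drives plasma cell fate, had 19 UMIs in 13 cells, and Sdc1 (CD138) had 11 in 10 cells. Irf4, which acts in both activated B cells and plasma cells, had 223 UMIs in 96 cells. At least 2 of the 10 plasma cell genes were found in 75 B cells and in 20 Tn cells, with Irf4 and Xbp1 the most counted.

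At least 2 of the 8 marginal zone genes were found in 59 of 286 B cells and in 9 of 243 Tn cells, and at least 2 of the 8 transitional genes in 27 and 5. Dtx1, a NOTCH target of marginal zone B cells, had 105 UMIs in 72 cells, Cr2 (CD21) had 31 in 21 cells and Cd9 had 57 in 39 cells, while Cd1d1 had 3. Zeb2, which is active in atypical B cells, had 107 UMIs in 70 cells. Tbx21, which encodes T-bet, had 9 UMIs in 4 cells, all in IL-33+ hearts (4, 3 and 2 UMIs), a count too low to be tested. Cd5, the classical B-1a marker, had 10 UMIs in 9 cells. Rag2 and Igll1 of B cell precursors had 0 UMIs, while Rag1 and Dntt (1 UMI) were detected. Cd93 of transitional cells had 9 UMIs, and Vpreb3 had 32 UMIs in 26 cells.

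Antigen presentation genes were expressed throughout the B cells. Cd74, the invariant chain, was found in all 286 B cells and stood at 9949.6, 11889 and 9954 CPM in the IL-33+ hearts and at 11229.9, 8775 and 9894 CPM in the IL-33- hearts. The I-A alpha chain gene H2-Aa stood at 3775, 4575 and 3904 CPM against 4419, 2678 and 4163 CPM. Each group spanned a like range apart from heart 5, the lowest for both genes. Over all B cells H2-Aa stood at 4105 CPM, below cDCs (6566 CPM) and macrophages (5992 CPM). By heart, B cells lay below macrophages in every heart and below cDCs in all but heart 2 (4575 against 3877 CPM). H2-Ob, a subunit of H2-O, which restrains peptide loading and is known from B cells, was higher in B cells than in cDCs and macrophages. It stood at 355 to 601 CPM in the B cells of the 6 hearts, 27.1 to 95.1 CPM in their cDCs and 0 to 20.8 CPM in their macrophages, so that the B cells of every heart lay above the cDCs of every heart. The genes of the peptide loading factor H2-M went both ways. H2-DMb1 was lower in B cells (73.2 to 180.3 CPM) than in cDCs (291 to 681 CPM) in every heart, and H2-DMa was lower in hearts 1, 3, 4 and 5. H2-DMb2 stood at 128 to 644 CPM in B cells and 67.0 to 214 CPM in cDCs, and was higher in B cells in all hearts but heart 5. In the Bm12 model the altered gene is H2-Ab1, and donor and recipient transcripts of it were not told apart. It stood at 3253, 3644 and 2929 CPM against 3874, 1935 and 3039 CPM.

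Among costimulatory genes, the groups overlapped for Cd83 and Cd86. Cd83, which stabilises MHC class II and CD86 at the surface, stood at 604, 676 and 1139 CPM in the IL-33+ hearts and at 519, 114 and 758 CPM in the IL-33- hearts. Cd86 stood at 132, 318 and 174 CPM against 186, 375 and 273 CPM. Cd274, which encodes PD-L1, was found in 66 cells, and Cd40 in 59. Cd40 stood at 100.4, 94 and 118.9 CPM against 92.5, 0 and 88.0 CPM, without overlap though hearts 2 and 4 lay close together. Its log2 fold change of 1.29 became 0.19 without heart 5. Ltb, which encodes lymphotoxin beta, was found in 88 cells and Tgfb1 in 204. Il10, the cytokine of regulatory B cells, had 12 UMIs in 7 cells, 11 of them in heart 3, and its share of cells (2.45%) did not exceed the 3.29% of Tn cells. Il6 had 24 UMIs in 23 cells and Tnf had 5 in 5 cells.

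Heart 3 gave the highest level of the homing receptor gene Cxcr4 and of the activation genes Nr4a1 and Cd83. Cxcr4 stood at 1781 CPM in heart 3 and at 413 to 833 CPM in the other 5, Nr4a1, which marks antigen receptor signalling, at 1198 against 403 to 752 CPM, and Cd83 at 1139 against at most 758 CPM. Hearts 1 and 2 of the same group lay below all 3 IL-33- hearts for Cxcr4, so the high Cxcr4 level was that of 1 IL-33+ heart and not of the group. The B cells of heart 3 had a median depth of 2182 UMIs, beside 2186 in heart 4.

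IL-33 receptor transcripts were not detected in B cells. Il1rl1, which encodes ST2, had 0 UMIs in 286 cells, which allows a share of up to 1.05% of cells with a UMI. Tregs had a UMI in 15.2% of cells, while Tn (0.412%), macrophages (0.699%), Tcm (0.752%) and NK cells (0.859%) also lay under that limit, so B cells were not told apart from these types at this depth. Il1rap, its coreceptor, had 13 UMIs in 10 cells. Il4ra, the IL-4 receptor chain, was found in 94 cells, and Il21r, the receptor for IL-21 of follicular helper T cells, in 115. Il33 had 2 UMIs in B cells. Of the BAFF axis, the receptor Tnfrsf13c was found in 139 cells and stood at 412, 342 and 407 CPM against 442, 180 and 154 CPM, while the ligand Tnfsf13b had 0 UMIs in B cells.

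At least 2 of the 16 cell cycle genes were found in 211 of 286 B cells and 192 of 243 Tn cells. Hmgb2, a chromatin protein, was found in 187 B cells and Cenpa, the centromeric histone, in 79. Mki67 had 12 UMIs in 3 cells, 8 of them in 1 cell of heart 6, and Top2a had 36 UMIs in 19 cells, 13 of them in that heart. Stmn1, which regulates microtubules, stood at 98.3, 34.9 and 57.8 CPM in the IL-33+ hearts and at 102, 259 and 205 CPM in the IL-33- hearts. The groups did not overlap for this gene, though hearts 1 and 4 lay close together.

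Markers of other cells were also found. All 10 T cell markers were detected at 0 to 191 CPM in sum per heart, and 8 of 286 B cells held 2 or more of them. The 10 macrophage and monocyte markers summed to 47.2 to 435 CPM, mostly from Apoe, with 36 cells holding 2 or more, and Csf1r had 5 UMIs and Fcgr1 had 4. NK markers summed to 109.5 to 212 CPM, neutrophil markers to 0 to 140 CPM with Ly6g at 0, and dendritic cell markers to 0 to 77.3 CPM with Clec9a and Siglech at 0. Fibroblast and endothelial markers summed to 430.5 to 703 CPM, with 2 or more of them in 75 of 286 B cells and 72 of 243 Tn cells, and Dcn was found in 32.2% of B cells and 32.1% of Tn cells. Haemoglobin genes reached 7782 CPM (Hbb-bs) in heart 2 and 6723 CPM in heart 6 against 64.7 to 224 CPM elsewhere, and 1 cell of heart 2 gave 1347 of 1463 haemoglobin UMIs and 1 cell of heart 6 gave 616 of 623. The part of these transcripts in the comparisons below was not tested beyond leaving out the 42 B cells with 2 or more T cell or macrophage markers.

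Whether B cells differed in expression between the labelled graft groups was asked of 7014 genes with at least 10 UMIs and a UMI in at least 3 hearts, by limma on log2(mean CPM + 10). At the 0.05 threshold after Benjamini-Hochberg adjustment the number of genes called was 0 (0% of genes tested), as it was with limma-voom on UMIs, whereas 293 genes had an unadjusted p of 0.05 or less (4.18%). Of these, 232 were at least 2-fold higher in IL-33+ hearts (3.31%) and 28 at least 2-fold higher in IL-33- hearts (0.399%). This split moved with the hearts kept and with the method, and its cause was not tested. In heart 5, 3577 of the 7014 genes (51.0%) had no UMI and 1 UMI was worth about 72.9 CPM. Without heart 4 the counts higher in IL-33+ and in IL-33- hearts were 730 and 63. Without heart 5 the counts were 191 and 84, with limma-voom 69 and 169, and with each heart centred on its median gene 4 and 90. The median log2 fold change (IL-33+ over IL-33-) of all genes tested was 0.28 with 6 hearts and 0.041 without heart 5, against which the values of single genes stand. Without IL-33- heart 6, which leaves hearts 4 and 5, 23 genes were called, among them Apobec3, Klf2, Ccr7, Cd83 and Ly6d but also the haemoglobin genes Hba-a1, Hba-a2 and Hbb-bs, carried in heart 2 mostly by 1 cell. With all 6 hearts and no filter on low counts, 7 genes were called (Apobec3, Arpc5, Ezr, Gm42418, Klf2, Ly6d and Nfkb1).

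Some genes separated the hearts by group without passing the adjusted test. With 3 against 3 hearts, 1 of 20 divisions (0.05) puts a given group wholly above the other. The shares that follow lie near that value. Groups did not overlap with IL-33+ higher in 493 genes (7.03%) and with IL-33- higher in 235 (3.35%). Among the 5190 genes with 20 or more UMIs the numbers were 308 (5.93%) and 210 (4.05%). Among these 5190 genes with groups that did not overlap, the 10 with the smallest unadjusted p in each direction all had an adjusted p of 0.844 by limma.

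Of the 10 higher in the IL-33+ hearts, several moved little without heart 5. Among them were Irf2bp2, a corepressor of interferon regulatory factor 2, and Elf1, an ETS factor of lymphocytes. Tle3 (log2 fold change 1.315, and 1.192 without heart 5) and Tnrc6b (1.611 and 1.446) were others. Irf2bp2 stood at 958, 1029 and 1067 CPM in the IL-33+ hearts and at 693, 541 and 592 CPM in the IL-33- hearts. Its log2 fold change was 0.74 (SE 0.22, adjusted p = 0.844 from limma) and 0.66 without heart 5, and it was -0.12 when hearts were centred on their median gene. Elf1 stood at 350.1, 347 and 303.2 CPM against 164, 161 and 143 CPM, a log2 fold change of 1.05 (SE 0.35, adjusted p = 0.844 from limma) and of 1.07 without heart 5. Both genes were chosen for groups that did not overlap, so the separation of their hearts adds no support. Elf1 kept its sign in all 18 alternatives, which for those that leave out a heart was fixed by that choice. Its log2 fold change was 0.19 when hearts were centred on their median gene. All 10 genes kept their sign with limma-voom. Without heart 5 the sign could not change, since the genes were chosen for groups that did not overlap.

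Apobec3, a cytidine deaminase that restricts retroviruses, stood at 315, 304.3 and 313 CPM in the IL-33+ hearts and at 149, 0 and 98.2 CPM in the IL-33- hearts. Its log2 fold change was 2.53 (SE 0.66, adjusted p = 0.844 from limma), which fell to 1.29 without heart 5. Ly6d, a surface protein that marks B cell commitment, stood at 588, 729.5 and 556 CPM against 438, 47.2 and 452 CPM, with a log2 fold change of 1.47 and of 0.47 without heart 5. Tle3, a Groucho corepressor, stood at 231, 293 and 251 CPM against 157, 80.5 and 71.9 CPM. Emc10, Prpf18, Ptprcap, Rbm22 and Tnrc6b made up the remaining 5, and 5 of the 10 genes had no UMI in heart 5.

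Of the 10 genes higher in the IL-33- hearts, Rps12, a protein of the small ribosomal subunit, was the most counted, with 2594, 3141 and 3036 CPM in the IL-33+ hearts and 3186, 4022 and 4259 CPM in the IL-33- hearts. Its log2 fold change was -0.38 (SE 0.16) and -0.34 without heart 5. Tfrc, the transferrin receptor of growing cells, stood at 91.3, 26.6 and 59.9 CPM against 132, 131 and 201 CPM. Stmn1 had a log2 fold change of -1.43 (SE 0.54) and of -1.17 without heart 5. Map3k7, which encodes the kinase TAK1, Cstb, Slc4a7, Ube2f, Uqcrq and Uvrag were also among the 10. Heart 5 had the highest value of the 6 in 8 of the 10.

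**Figure D4:**
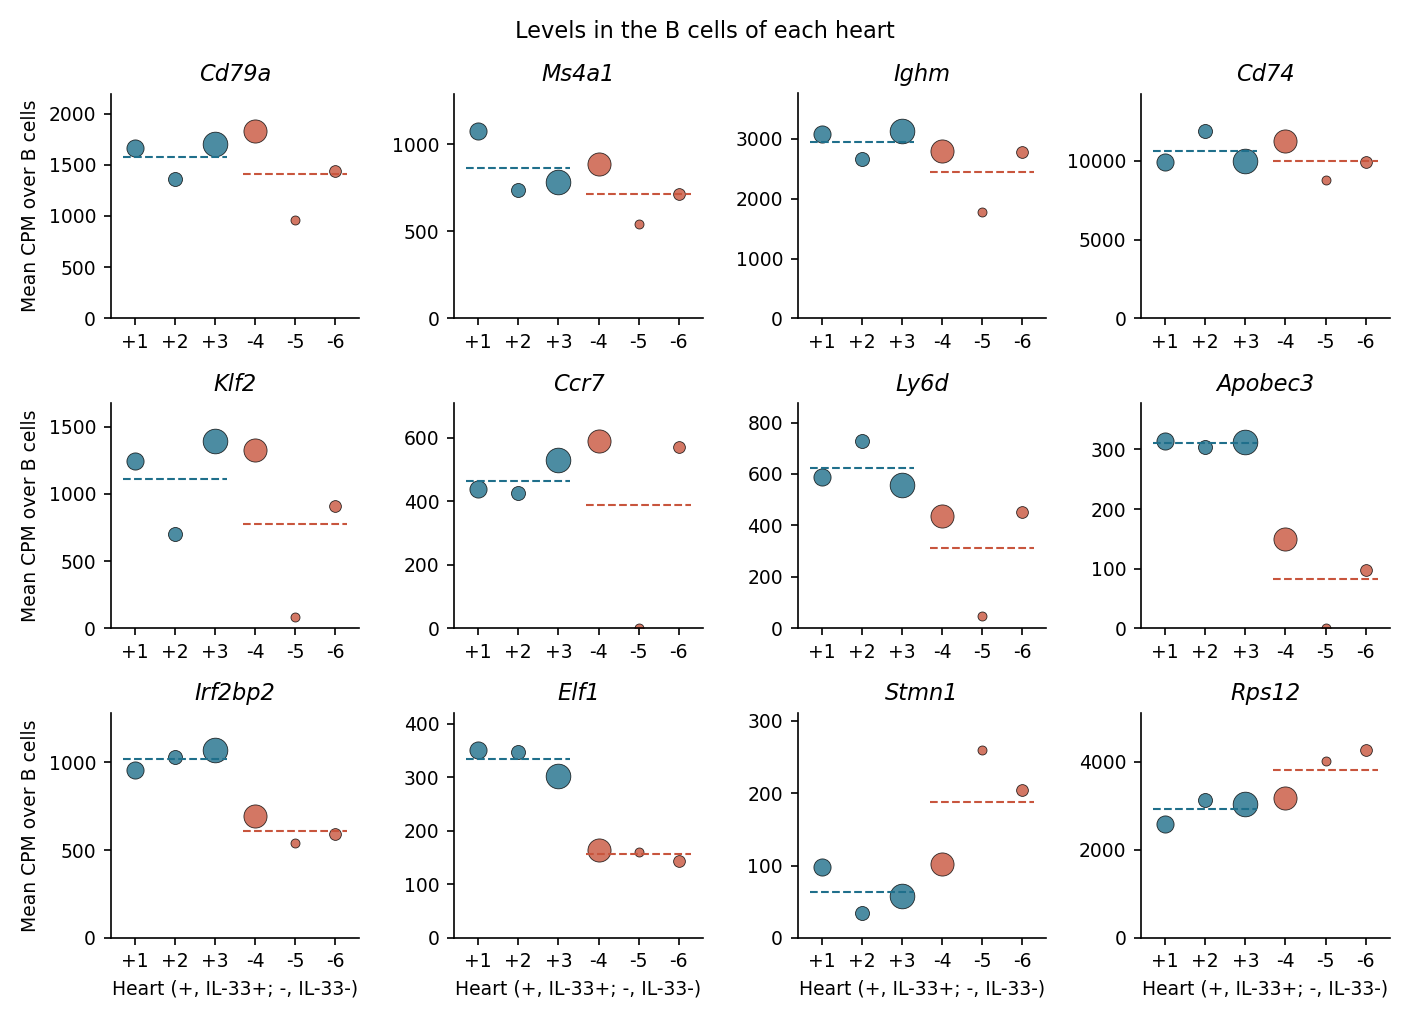
Mean CPM over the B cells of each heart for 12 genes, with point size growing with the number of B cells and dashed lines at the group means. The groups overlap for Cd79a, Ms4a1, Ighm, Cd74, Klf2 and Ccr7 and are separate for Ly6d, Apobec3, Irf2bp2, Elf1, Stmn1 and Rps12, and heart 5 lies at 0 for Ccr7 and Apobec3.

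The gene lists gave no called member, and their medians moved with heart 5. Over all genes tested, 4591 of 7014 were higher in the IL-33+ hearts, which is the background for the counts that follow. Of 20 genes of antigen receptor signalling, 12 were higher and 8 lower in the IL-33+ hearts, with a median log2 fold change of 0.20 beside 0.28 for all genes tested, and of 0.048 without heart 5. Ptpn6, which encodes the inhibitory phosphatase SHP-1, and Pik3ap1, an adaptor for PI3 kinase, had unadjusted p values of 0.05 or less, and both had 0 UMIs in heart 5. Their log2 fold changes of 1.89 and 1.54 became 0.61 and 0.11 without it. Of 20 genes of lineage identity, 18 were higher, with a median of 0.34 (0.13 without heart 5). Syk, Lyn, Blnk and Blk, kinases and an adaptor of the receptor, had log2 fold changes of -0.23, 0.26, -0.60 and -0.58, and Ebf1 and Pax5, the factors that specify and hold the lineage, of 0.24 and -0.0465, none with an unadjusted p of 0.05 or less. Without heart 5 the values were -0.20, 0.30, -0.40 and -0.26, and 0.35 and -0.083.

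Of 14 MHC class II genes, 13 were higher in the IL-33+ hearts, with a median of 0.19, below the 0.28 of all genes tested, that became -0.0050 without heart 5. The 10 follicular genes had a median of 0.51, and of -0.10 without heart 5, and in heart 5 Klf2 was low and Ccr7 was at 0. The 24 early activation genes had medians of 0.33 and 0.29, and an unadjusted p at or under 0.05 was reached by 7, beside 4.18% of all genes tested. Jund, Klf6, Dusp2, Cd83 and Nfkbid were higher in the IL-33+ hearts and Egr1 and Egr2 in the IL-33- hearts. For Egr1 the log2 fold change of -0.99 became -0.081 without heart 5, which gave 37 of its UMIs, and for Cd83, Dusp2 and Nfkbid values of 1.09, 1.09 and 1.07 became 0.30, 0.44 and 0.55. Jund, an AP-1 subunit, stood at 2699, 2224 and 2557 CPM against 2026, 1790 and 1768 CPM, without overlap.

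Of 16 interferon-stimulated genes tested, 10 were higher in the IL-33+ hearts, with a median of 0.43 and of 0.13 without heart 5. The 10 cell cycle genes had medians of -0.078 and -0.38, the BAFF and APRIL axis (8 genes) 0.44 and 0.27, costimulation (10 genes) 0.47 and 0.011, and homing receptors (17 genes) 0.12 and 0.020. Other short lists were the IL-33 and type 2 axis (6 genes, 0.56 and 0.13), Toll-like receptors (7 genes, 0.27 and -0.13), B-1 genes (6 genes, 0.56 and 0.42) and plasma cell genes (7 genes, 0.22 and 0.62). The immunoglobulin constant genes (9 tested) had medians of 0.33 and 0.60. Iglc3 had 12, 3 and 58 UMIs against 27, 0 and 0 UMIs, with the division among lambda genes uncertain. Of lambda UMIs as a sum, 1 cell of heart 3 held 46 and 1 cell of heart 4 held 31. For the macrophage and monocyte markers (6 tested) the medians were 0.98 and 0.29, and for the T cell markers (6 tested) 0.13 and -0.48.

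**Figure D5:**
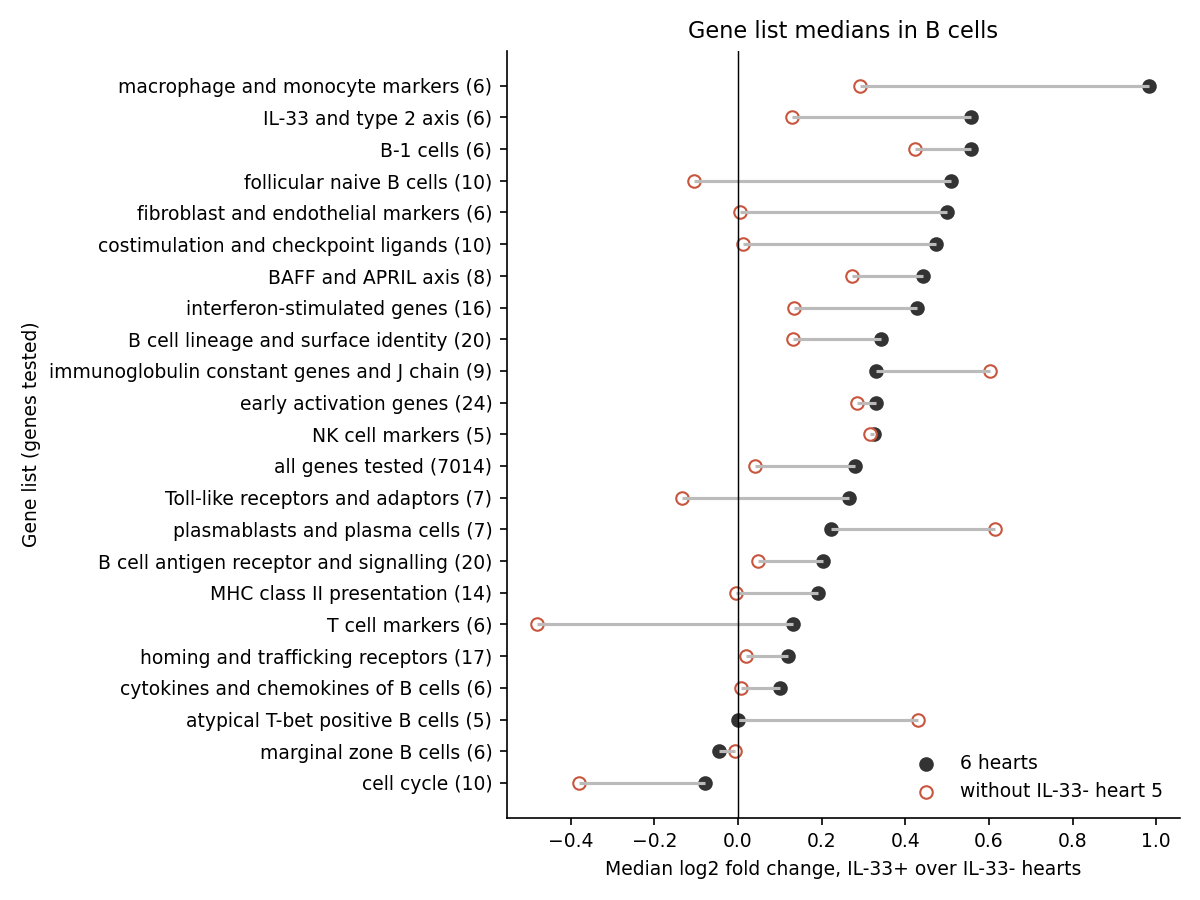
Median log2 fold change (IL-33+ over IL-33- hearts) of each gene list with at least 5 genes tested, with all 6 hearts (filled) and without IL-33- heart 5 (open), and the number of genes tested in brackets. All 7014 genes tested move from 0.28 to 0.041, and most lists move with them toward 0.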

How the data were processed

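Single-cell RNA-Seq (10x Genomics 3′ kit) of 6 hashtagged hearts was used. The authors aligned reads with Cell Ranger to mm10, filtered cells by counts, genes and mitochondrial share and annotated types in Partek Flow (version 10.0.23.0425 per the labels), and deposited log2(CPM + 1) values per cell. The retained cells held 1500 to 14977 UMIs and up to 19.6% mitochondrial UMIs. No doublet caller was run here. Values were turned back to CPM and to UMIs, of which 99.94% of those up to 20 lay within 0.05 of a whole number. CPM was averaged over the B cells of each heart, 10 CPM were added, and log2 values were compared with limma 3.58.1 in R 4.3.3 (eBayes with trend) for genes with at least 10 UMIs and a UMI in at least 3 hearts, with Benjamini-Hochberg adjustment over all genes tested. The added 10 CPM shrinks the fold changes of low genes. Those of genes with no UMI in heart 5 can instead be too large, as for Apobec3 (log2 fold change 2.53, and 1.29 without heart 5). Shares per heart were tested by exact permutation of the hearts, two-sided. Intervals are 95% Wilson intervals and, like limits from 3 counts, cover counting error only. Among gene symbols, 20 held means of several entries and were kept. Coordinates are from GENCODE vM21 (GRCm38).

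Named genes are the 4 markers, the 10 genes per direction with the smallest unadjusted p among those with 20 or more UMIs and groups that did not overlap, up to 8 members per list with most UMIs and members at 0, the 15 genes with the highest ratio to the next type, and the variable segments found most often; a few others were named after their values were seen. Members, the 27 gene lists and these rules were chosen with earlier results of these data known. The 18 alternatives to the fit changed the pseudocount, filter, normalization, weights, cells or hearts. A few genes that these rules select are not reported here.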

Additional observations from a re-analysis of the deposited data

How the results depend on the processing

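The 4 B cells of IL-33- heart 5 and the 15 of heart 6 limit every comparison. No paired analysis was possible because the deposited labels number the hearts 1 to 3 and 4 to 6, and no source used here ties hearts of the groups to a shared batch. The count of called genes was 0 in the reported fit and in 14 of 18 alternatives, and 1 (Scai) with hearts weighted by their number of B cells, 3 with a pseudocount of 50 CPM, 7 with no filter on low values, and 0 to 23 when each heart was left out, with 23 without heart 6; the cause was not tested. Genes at least 2-fold apart at an unadjusted p of 0.05 or less ranged from 4 to 730 (IL-33+ higher, 232 reported) and from 12 to 169 (IL-33- higher, 28 reported), and 730 came without heart 4. The median log2 fold change over all genes tested (0.28) was 0.13 with 50 or more UMIs, 0.62 and 0.10 with pseudocounts of 1 and 50 CPM, 0.025 with weights, -0.067 with limma-voom, -0.58 with centring, and 0.041 to 0.44 when each heart was left out. Centring subtracts the median gene, which had no UMI in heart 5, and so lowers every fold change by the same amount. With centring, Cd79a was at -0.66, Cd79b at -0.24, Ms4a1 at -0.58, Ighm at -0.56 and Irf2bp2 at -0.12. Cd79a was also at -0.081 with weights, -0.10 with limma-voom and -0.052 without heart 5 (up to 0.41 when 1 heart was left out), and Ms4a1 at -0.038 with summed UMIs, -0.0055 with weights and -0.22 with limma-voom. The switched share differed by -3.02 percentage points with UMIs pooled per heart and by -8.01 with cells thinned to 1500 UMIs. Both came through heart 5 (13.8% of UMIs, 25% of its 4 cells), and background UMIs were not removed. The lambda share differed by -1.94 to 2.86 percentage points when each heart was left out. Shares of B cells kept their direction throughout, with differences of 0.757 to 5.55 percentage points of all cells when each heart was left out, lowest without hearts 2 (0.757) and 5 (0.817) and highest without heart 4.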
